A study of Mus musculus with 6 samples.

Results

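Glutathione S-transferases are the enzymes that join glutathione, the main thiol of the cell, to reactive compounds so that these can be exported and excreted. The mouse genes described here were Gstm1, Gstm2, Gstm3, Gstm4 and Gstm6 of the mu class, Gsta2, Gsta3 and Gsta4 of the alpha class, Gstt1 of the theta class and Gstp1 of the pi class. They were found as the array probes whose accession belongs to these symbols in RefSeq, which gave 19 of the 55681 probes on the array and 10 of the 20284 genes with a symbol. All 10 genes and all 19 probes passed the filter on dim signal, which asked for signal clearly over background in 3 or more of the 4 pool pairs.

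Liver RNA came from male Apoe-deficient mice with a C57BL/6J genetic background, which develop high plasma cholesterol. The squalene group (10 mice) ate a purified Western diet, with 0.15% cholesterol and 20% palm oil, to which 1% squalene had been added, and the Western group (9 mice) ate that diet alone, both for 11 weeks. The deficiency and the Western diet were shared by both groups, so no wild-type or chow-fed liver enters the comparison. RNA was combined into 4 squalene pools and 4 Western pools of 2 or 3 mice each, and every 2-colour array set a squalene pool against a Western pool. The labels used here give no age.

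The 6 arrays formed 4 pool pairs, which were the replicates. Squalene was in Cy5 in pairs 1 and 4 and in Cy3 in pairs 2 and 3. Pairs 1 and 2 had a repeat array each. Values are log2 ratios of squalene over Western, and levels are log2 intensities of a pool's channel after normalisation. A level includes any effect of the dye and is read only within a probe. The hepatocyte markers were measured for 10 of 10 genes, with a mean log2 intensity between 15.87 and 16.07 in the squalene pools and between 15.80 and 16.03 in the Western pools. Apoe RNA, the transcript of the deficient gene, was above background in all 4 pairs, and does not check the labels here, since both groups carry the deficiency. In whole liver, fewer cells of a type and less RNA per cell cannot be told apart.

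In hepatocytes the alpha and mu classes are abundant cytosolic enzymes. Many of their genes are raised by NRF2, a transcription factor that is released from its repressor Keap1 by electrophiles and binds antioxidant response elements. In rodents several are also raised by the xenobiotic receptors CAR and PXR. The conjugates leave the cell through transporters of the Abcc family and are trimmed to mercapturic acids.

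Promoters, from 250 bases before to 50 bases after a transcription start, were listed in RefSeq (GRCm38.p6) for 9 of the 10 genes. The 4 shown include Gsta2, whose ratios ranged most widely between the pool pairs, and Gstm3, whose ratios ranged less widely than those of Gstm1. The others are Gsta3 and Gstp1, the members with the core of the antioxidant response element or the AP-1 letters. All are read 5′ to 3′ on the gene's strand, and capitals mark matches to these 2 motifs. Gsta2 lies at chr9:78347096-78347395 on the minus strand, Gstm3 at chr3:107969125-107969424 on the minus strand, Gsta3 at chr1:21240335-21240634 on the plus strand and Gstp1 at chr19:4037863-4038162 on the minus strand.
Gsta2: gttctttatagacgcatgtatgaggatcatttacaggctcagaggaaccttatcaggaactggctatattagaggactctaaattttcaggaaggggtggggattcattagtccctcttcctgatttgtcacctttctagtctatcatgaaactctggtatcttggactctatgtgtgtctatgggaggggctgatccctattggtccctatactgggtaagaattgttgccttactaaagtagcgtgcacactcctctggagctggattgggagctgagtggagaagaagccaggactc
Gstm3: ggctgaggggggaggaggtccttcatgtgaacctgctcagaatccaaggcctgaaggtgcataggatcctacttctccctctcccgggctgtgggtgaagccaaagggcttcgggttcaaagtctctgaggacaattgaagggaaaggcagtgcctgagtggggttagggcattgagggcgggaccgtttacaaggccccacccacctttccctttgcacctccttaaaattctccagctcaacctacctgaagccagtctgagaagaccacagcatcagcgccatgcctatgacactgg
Gsta3: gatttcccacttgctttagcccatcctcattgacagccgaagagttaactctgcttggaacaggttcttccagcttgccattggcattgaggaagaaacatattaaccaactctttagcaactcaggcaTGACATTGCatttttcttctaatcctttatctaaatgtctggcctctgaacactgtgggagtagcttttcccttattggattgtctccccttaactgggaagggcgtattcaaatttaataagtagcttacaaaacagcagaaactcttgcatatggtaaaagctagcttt
Gstp1: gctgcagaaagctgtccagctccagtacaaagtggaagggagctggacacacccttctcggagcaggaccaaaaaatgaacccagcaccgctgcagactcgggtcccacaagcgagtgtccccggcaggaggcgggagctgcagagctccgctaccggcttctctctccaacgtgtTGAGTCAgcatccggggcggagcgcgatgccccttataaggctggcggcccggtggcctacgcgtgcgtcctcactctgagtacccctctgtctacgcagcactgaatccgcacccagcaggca

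The searched letters were TGACNNNGC, the core of the antioxidant response element, and TGANTCA, the AP-1 site, on both strands. The 2 motifs overlap where TGACTCA is followed by GC. The element core was found in 1 of the 9 members, Gsta3, as TGACATTGC, which begins at position -121 from the start. It stands in 13.99% of all genes with a listed promoter. The AP-1 letters were found in 1 of the 9 members, Gstp1, as TGAGTCA, which begins at position -74 from the start, and in 8.97% of all genes. Of the general promoter letters, TATAA was found in 3 of the 9 members and 27.99% of all genes, and CCAAT in 7 of the 9 members and 41.06% of all genes, on either strand. A direct repeat of the half-site AGGTCA, or of its variants with the letters AGTTCA and GGGTCA and GGTTCA, spaced by 4 bases, a form that CAR can bind, was found in 0 of the 9 members and in 0.0962% of all genes. A match or its absence describes these windows only, and many response elements lie outside them.

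The comparison asked whether hepatic transferase RNA differed when squalene was added to the Western diet. No transferase passed the test. For all 10 genes the SD between pool pairs was larger than the absolute mean ratio. That SD includes any difference between the dye orientations, which the fit models separately, so it is not the error of the test. Of the 10 genes, 7 had a mean ratio above 0 and 3 below 0, and the median was 0.03, against 0.0028 over all 20659 features. By limma with Benjamini-Hochberg adjustment, 0 of 10 genes had an adjusted p under 0.05, against 0% of all features, and every member's adjusted p was 0.9999. At an unadjusted p under 0.05, 0 of 10 were higher and 0 of 10 were lower, against 1.05% and 1.42% of all features. The ratio had 1 sign in all 4 pairs for 0 of the 10 genes, where 3.34% of all features were above 0 in every pair and 3.04% below 0. The squalene and Western levels overlapped for all 10 genes, and were apart for 0.779% of all features.

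**Figure D1:**
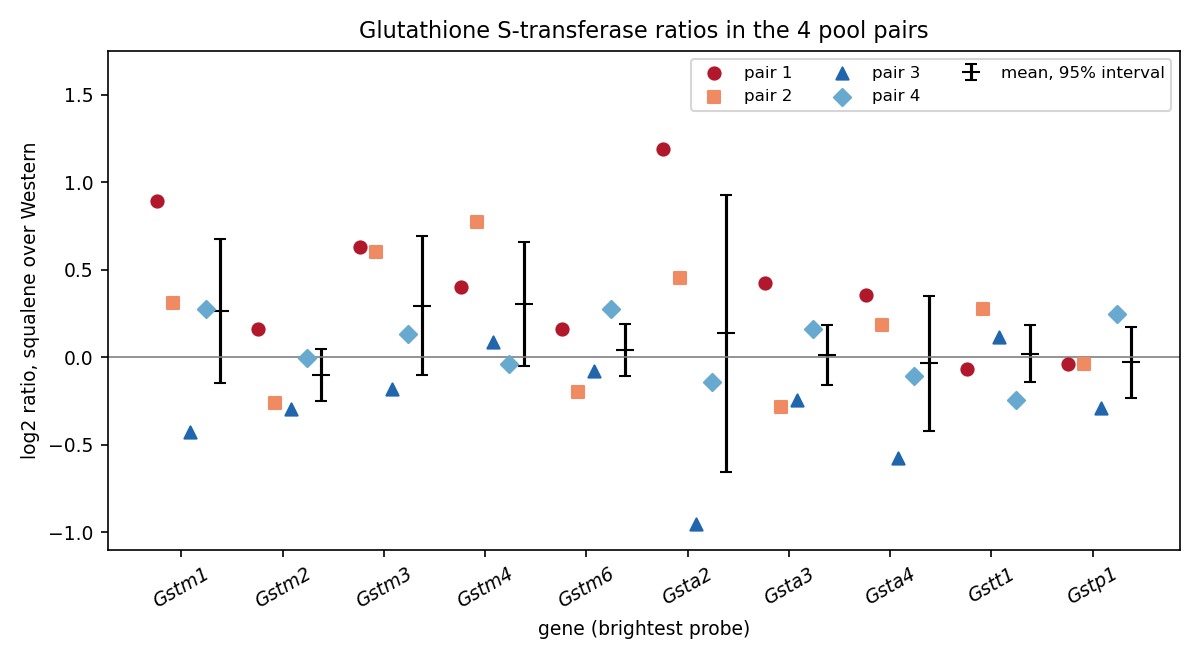
Log2 ratio of squalene over Western (vertical axis) for the brightest probe of each of the 10 transferases (horizontal axis). Coloured symbols are the 4 pool pairs, and the black mark and bar are the mean and its 95% interval from limma; every interval includes 0, and Gsta2 spans from -0.96 in pair 3 to 1.19 in pair 1.

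The mu class held the highest mean ratios. Gstm4 read 13.22, 13.38, 12.84 and 12.35 in the squalene pools of pairs 1 to 4, against 12.82, 12.61, 12.75 and 12.39 in the Western pools, as log2 intensity. Its 2 highest pools were both squalene pools, but its lowest was one as well, so the diets overlapped. The log2 ratios were 0.40, 0.77, 0.09 and -0.04, with a mean of 0.30 ± 0.36 (SD over the 4 pairs) and an SE of 0.14. This corresponded to 1.23-fold, with a 95% interval of 0.966 to 1.58, and an unadjusted limma p of 0.078.

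Gstm3, a mu-class enzyme of the same gene cluster, read 14.58, 14.50, 14.08 and 13.74 in the squalene pools, against 13.96, 13.90, 14.27 and 13.61 in the Western pools. The squalene pool was the higher in pairs 1, 2 and 4, and the Western pool in pair 3. Its ratios were 0.63, 0.60, -0.18 and 0.13, with a mean of 0.29 ± 0.39 (SD), or 1.23-fold with a 95% interval of 0.931 to 1.61.

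Gstm1, the main mu-class transferase of mouse liver, read 16.48, 16.10, 15.79 and 15.84 in the squalene pools, against 15.59, 15.79, 16.22 and 15.57 in the Western pools. Again pair 3 alone had the Western pool higher. The ratios were 0.89, 0.31, -0.43 and 0.27, with a mean of 0.26 ± 0.54 (SD), and the 95% interval ran from 0.901-fold to 1.59-fold. The fitted log2 ratios of these 3 genes depended on which pair was left out. With a pair left out, the fit kept the dye term. The pair alone in its dye orientation then weighed as much as both other pairs together. These fitted ratios are therefore not plain means of the remaining pairs. Without pair 1 they were 0.11 for Gstm1, 0.17 for Gstm3 and 0.20 for Gstm4, and without pair 2 they were 0.08, 0.10 and 0.13, with unadjusted limma p-values of 0.296 or higher in both cases. Without pair 3 the fitted ratios were 0.45, 0.49 and 0.48. Their unadjusted limma p-values were 0.033, 0.0136 and 0.0112, and the adjusted p-values were 0.9999, 0.995 and 0.955. Without pair 4 they were 0.42, 0.42 and 0.41, with unadjusted limma p-values of 0.074, 0.0833 and 0.064.

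The other mu-class genes lay close to 0. Gstm2 had ratios of 0.16, -0.26, -0.30 and -0.004, with a mean of -0.10 ± 0.22 (SD). Gstm6 had ratios of 0.16, -0.20, -0.08 and 0.28, with a mean of 0.04 ± 0.22 (SD). Their 95% intervals on the brightest probe ran from 0.840-fold to 1.03-fold for Gstm2 and from 0.927-fold to 1.14-fold for Gstm6. A separate fit, over all probes that passed the filter, gave log2 upper ends of 0.047 and 0.189 on these probes. On the other probes the upper ends in that fit were higher, at 0.101 and 0.126 for Gstm2 and 0.287 and 0.292 for Gstm6. In RefSeq Gstm6, Gstm3, Gstm2, Gstm1 and Gstm4 follow each other on chromosome 3, and the neighbours Gstm2 and Gstm3 read -0.10 and 0.29.

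Of the 10 genes, Gsta2 varied most between pairs, with an SD of 0.91 against 0.22 to 0.54 for the others. Gsta2 is an inducible alpha-class enzyme that acts on lipid peroxides, and its promoter is the first printed above. It read 12.95, 11.99, 11.84 and 11.54 in the squalene pools, against 11.77, 11.54, 12.80 and 11.68 in the Western pools. A single pool of each diet stood high, the squalene pool of pair 1 and the Western pool of pair 3, and the other 6 pools lay between 11.54 and 11.99. The ratios were therefore 1.19, 0.45, -0.96 and -0.14. The mean of 0.13 ± 0.91 (SD) had a 95% interval of 0.634-fold to 1.90-fold, the widest of the 10 genes. Pair 1 placed Gsta2 at percentile 99.8 of all features and pair 3 at percentile 0.604.

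Gsta4, which conjugates the lipid peroxidation product 4-hydroxynonenal, read 9.90, 9.64, 9.57 and 9.45 in the squalene pools, against 9.54, 9.45, 10.15 and 9.56 in the Western pools. The same 2 pools were the highest as for Gsta2. Its ratios were 0.36, 0.18, -0.58 and -0.11, with a mean of -0.04 ± 0.41 (SD). Its probe was spotted 10 times on each array, and the SD between spots of an array was between 0.04 and 0.09. The spread between pairs was larger than that between spots on every array. Spots of an array share its dye orientation, while the pairs do not.

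Gsta3, an abundant alpha-class enzyme of mouse liver that conjugates aflatoxin epoxide, read 17.06, 16.77, 16.70 and 16.86 in the squalene pools, against 16.64, 17.05, 16.94 and 16.70 in the Western pools. Unlike Gsta2, its highest Western pool was that of pair 2. The ratios were 0.42, -0.29, -0.25 and 0.16, with a mean of 0.01 ± 0.34 (SD), above 0 in the pairs with squalene in Cy5 and below 0 in those with it in Cy3.

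Gstt1, a theta-class enzyme that acts on small halogenated compounds, ranged from 14.93 to 15.17 in the squalene pools and from 14.90 to 15.17 in the Western pools. Its ratios were -0.07, 0.28, 0.12 and -0.24, with a mean of 0.02 ± 0.22 (SD). Gstp1, a pi-class enzyme with higher levels in male than in female mouse liver, ranged from 15.99 to 16.14 in the squalene pools and from 15.79 to 16.28 in the Western pools. Its ratios were -0.04, -0.04, -0.29 and 0.25, with a mean of -0.03 ± 0.22 (SD). For both genes the pools of the diets overlapped throughout.

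**Figure D2:**
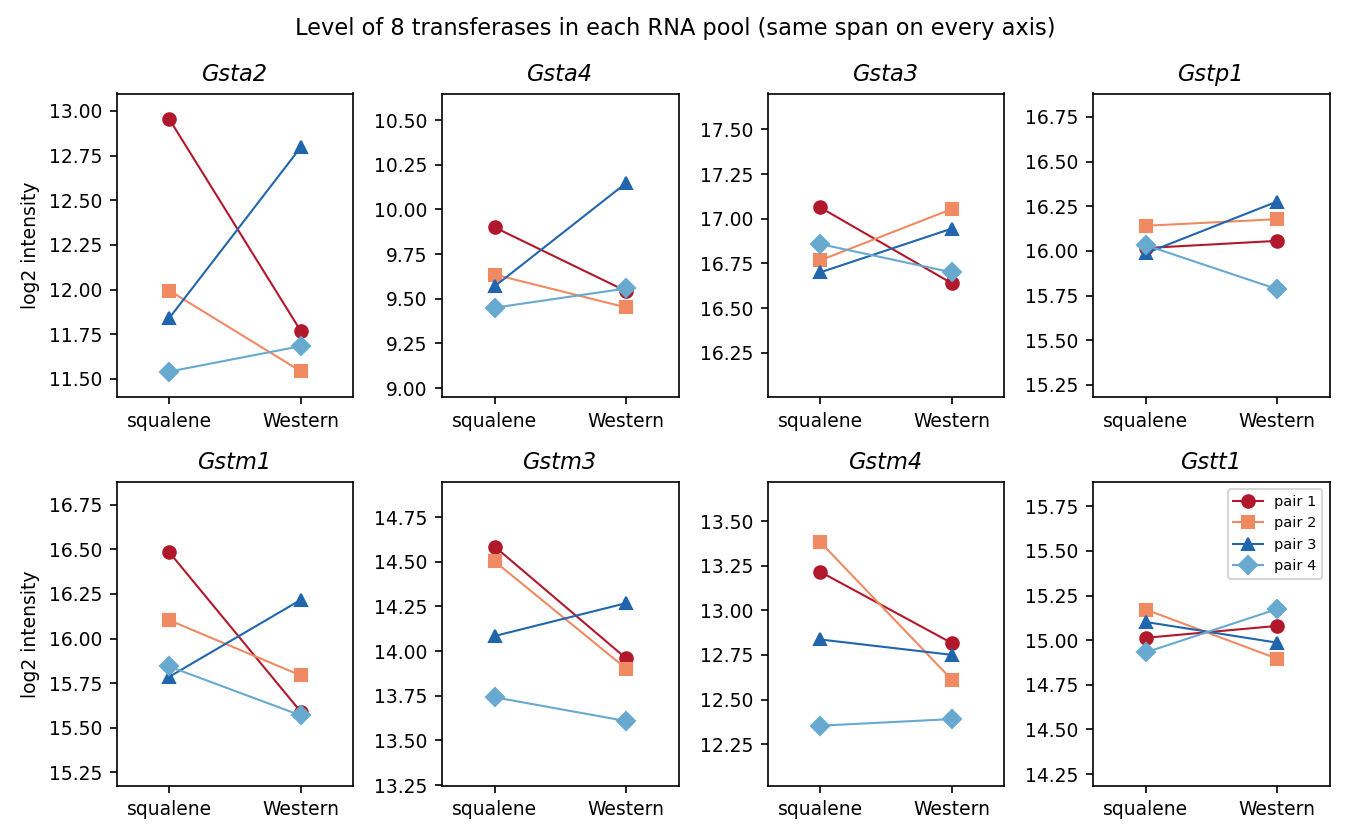
Log2 intensity (vertical axis, the same span in every panel) of 8 transferases in the squalene pools (left) and the Western pools (right), with a line joining the pools of a pair. Gsta2 and Gsta4 were highest in the squalene pool of pair 1 and in the Western pool of pair 3, while Gstt1 stayed between 14.90 and 15.17.

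Across the 10 genes, the median ratio was 0.38 in pair 1, 0.23 in pair 2, -0.27 in pair 3 and 0.06 in pair 4. Over all features the pair medians lay between -0.01 and 0.01. The ratio was above 0 for 8, 6, 2 and 5 of the 10 genes in pairs 1 to 4. Among the squalene pools, that of pair 1 was the highest for 6 of 10 genes, against 28.4% of all features. Among the Western pools, that of pair 3 was the highest for 6 of 10 genes, against 28.6% of all features. Both of these pools were in Cy5, as were the squalene pool of pair 4 and the Western pool of pair 2, which were the highest of their diet for 1 and 2 of the genes. By class, the alpha mean was 0.66, 0.12, -0.59 and -0.03 in the 4 pairs, and the mu mean was 0.45, 0.24, -0.18 and 0.13.

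Repeat arrays of the same pools gave close values. The absolute difference between the arrays had a median of 0.05 in pair 1 and 0.06 in pair 2 over the 10 genes, with the largest at 0.29 for Gstm6 in pair 1. The ratio kept its sign for 10 of 10 genes in pair 1 and 9 of 10 in pair 2, the exception being Gstp1 at -0.08 and 0.004. Gsta2 read 1.21 on slide 1 and 1.17 on slide 2 in pair 1, and 0.49 and 0.42 in pair 2. The SD over the 4 pairs was larger than the larger of the repeat differences for 9 of the 10 genes, all but Gstm6. Repeat arrays kept the dye orientation of their pair. A difference between the orientations therefore enters the SD but not the repeat differences, and the 2 measures do not separate pools from dye.

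**Figure D3:**
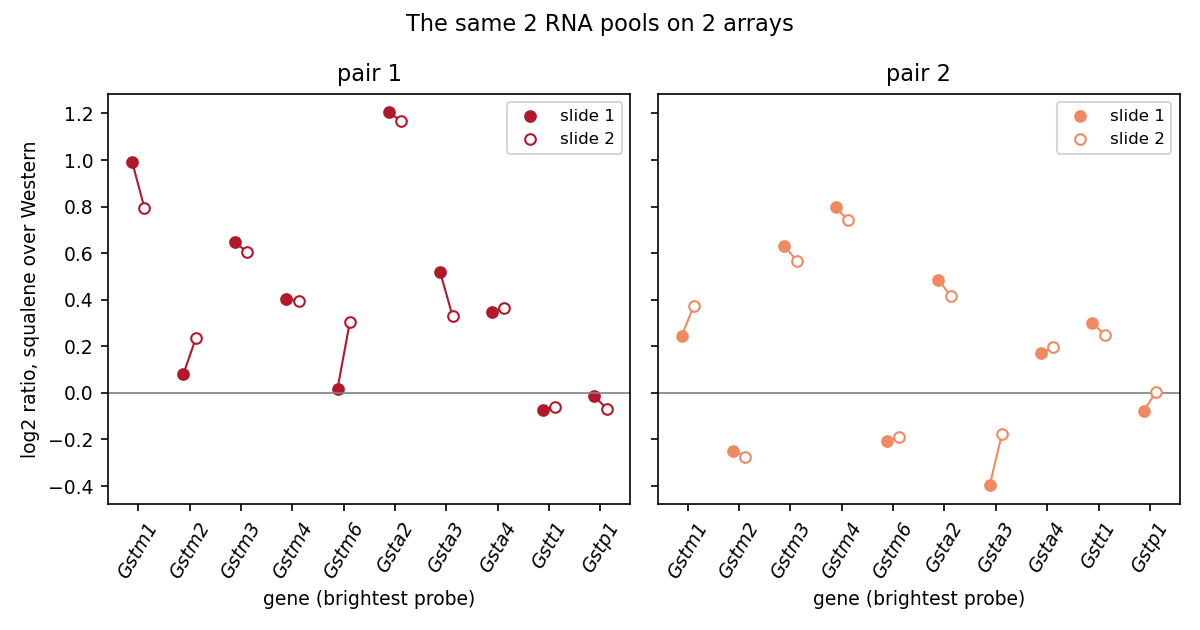
Log2 ratio of squalene over Western (vertical axis) of the 10 transferases on the repeat arrays of pair 1 (left) and pair 2 (right), filled circles for slide 1 and open circles for slide 2. Lines join the arrays of the same pools; the largest gap is 0.29, for Gstm6 in pair 1.

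For 7 of the genes more than 1 probe was present. The mean ratio had the same sign for all probes of each of these genes, and the means of a gene lay within 0.14 of each other. Gstm1 read 0.26 and 0.31, Gstm3 0.29 and 0.23, and Gstm4 0.30 and 0.16 on the brightest and the other probe. In single pairs the probes differed by up to 0.41, for Gstm4. In pair 3 the brightest Gstm4 probe read 0.09 and the other -0.32. The other probes of Gstm6 read 0.12 and 0.14 and were above 0 in all 4 pairs, against 0.04 for the brightest. Transferase genes of a class are close in sequence, so a probe may take up signal of its relatives, and probe sequences were not used here.

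**Figure D4:**
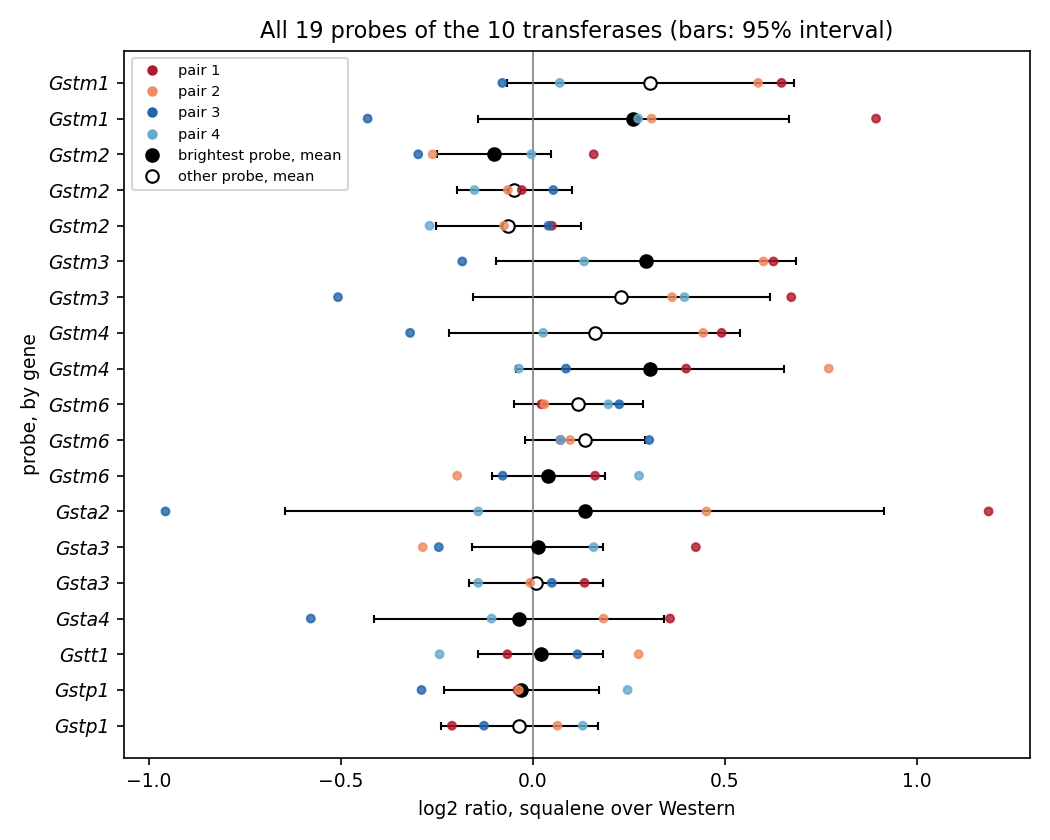
Log2 ratio of squalene over Western (horizontal axis) of all 19 probes, grouped by gene (vertical axis). Filled and open black circles are the means of the brightest and other probes with 95% intervals, and small coloured circles are the 4 pool pairs; every interval includes 0.

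Among named features, those whose 4 ratios came nearest to those of the brightest Gstm4 probe were Zfp931, Mvd and Gm14391. Their root mean square differences from Gstm4 over the 4 pairs were 0.13, 0.13 and 0.15, out of 13311 features compared. Mvd, an enzyme of cholesterol synthesis, read 0.18, 0.68, 0.08 and -0.14 in pairs 1 to 4. The other Gstm4 probe read 0.49, 0.44, -0.32 and 0.03. A link between Gstm4 and these features was not tested.

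Of the 17 other glutathione transferases listed, 14 were measured, with 8 above 0, 6 below 0 and a median of 0.02. Gstt3, a theta-class enzyme encoded beside Gstt1, read 11.22, 11.42, 11.65 and 11.36 in the squalene pools, against 10.94, 11.03, 10.95 and 11.24 in the Western pools. Its ratio was above 0 in all 4 pairs, at 0.29, 0.39, 0.70 and 0.12. The mean was 0.37 ± 0.24 (SD), with an unadjusted limma p of 0.00442 and an adjusted p of 0.9999. Gstk1, the kappa-class enzyme, had a mean of -0.20 ± 0.18, and Hpgds, which makes prostaglandin D2, a mean of -0.14 ± 0.15 (SD); neither reached an unadjusted p of 0.05. Gsta1, a close relative of Gsta2, read 1.36, 0.03, -1.21 and 0.32.

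Glutathione supply and the handling of its conjugates were measured by 22 of 25 listed genes. Of these, 7 were above 0, 15 below 0 and the median was -0.01. The lowest unadjusted p belonged to Abcc3, a transporter of conjugates across the basolateral membrane, with ratios of 0.27, 0.35, 0.13 and 0.20. Its mean was 0.24 ± 0.10 (SD), with an unadjusted limma p of 0.0134 and an adjusted p of 0.9999. Nat8, which acetylates cysteine conjugates to mercapturic acids, had a mean of -0.26 ± 0.33, and Abcc2, the canalicular exporter of conjugates, one of 0.16 ± 0.12 (SD).

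The 20 NRF2 pathway genes were all measured, 11 above 0 and 9 below 0, with a median of 0.01 and none at an unadjusted limma p under 0.05. Their median was 0.30 in pair 1, 0.09 in pair 2, -0.30 in pair 3 and -0.08 in pair 4, beside the transferase medians of 0.38, 0.23, -0.27 and 0.06. The NRF2 pathway genes with the smallest p were Cbr3, a carbonyl reductase, at 0.24, -0.38, -1.04 and -0.13, Keap1 at 0.28, 0.34, 0.08 and -0.06, and Ftl1, the light chain of ferritin, at 0.72, -0.45, -0.57 and 0.60.

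The CAR and PXR targets, of which 8 of 10 were measured, were all above 0, 6 of them in all 4 pairs, and 6 had an unadjusted limma p under 0.05. None passed an adjusted p of 0.05. Their mean ratios ran from 0.13 to 3.35, with a median of 0.79. The smallest p belonged to Cyp2c29, with a mean of 1.08 ± 0.19 (SD) and an adjusted limma p of 0.158. Cyp2b10, the classic CAR target, had the highest mean ratio of the list. It read 2.98, 2.66, 3.65 and 4.10, with a mean of 3.35 ± 0.65 (SD) and an adjusted limma p of 0.225. Its levels in the diets did not overlap. The highest ratio of the 10 transferases in a single pair was 1.19, for Gsta2 in pair 1. That of the others named above was 1.36, for Gsta1 in pair 1. The difference between these lists was not tested.

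Markers of other cells also differed between the pairs. The macrophage markers, 12 of 14 measured, had a median of 0.26, 0.08, -0.57 and -0.46 in pairs 1 to 4, with a mean log2 intensity between 11.33 and 12.23 in the squalene pools and between 11.58 and 12.09 in the Western pools. The 6 red cell genes had a median of 0.01, -0.54, -1.62 and 0.14, with a mean log2 intensity between 11.87 and 12.44 in the squalene pools and between 12.16 and 13.02 in the Western pools. The 10 hepatocyte markers had a median of 0.07, -0.16, 0.19 and 0.18. Markers of hepatocytes near the central vein, 8 of 8 measured, had a median of -0.28, -0.21, 0.11 and 0.01, and those of hepatocytes near the portal vein, 8 of 8, one of -0.10, 0.22, 0.11 and -0.24. Stellate cell and fibroblast markers, 10 of 10, read 0.10, -0.47, -0.33 and 0.08, and endothelial markers, 8 of 8, read 0.14, -0.01, -0.25 and -0.04. Lymphocyte and neutrophil markers, 8 of 9, read 0.36, -0.09, -0.16 and 0.02, and bile duct markers, 4 of 7, read -0.15, 0.05, -0.0003 and -0.06. The part of these cells in the ratios of the transferases was not tested.

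**Figure D5:**
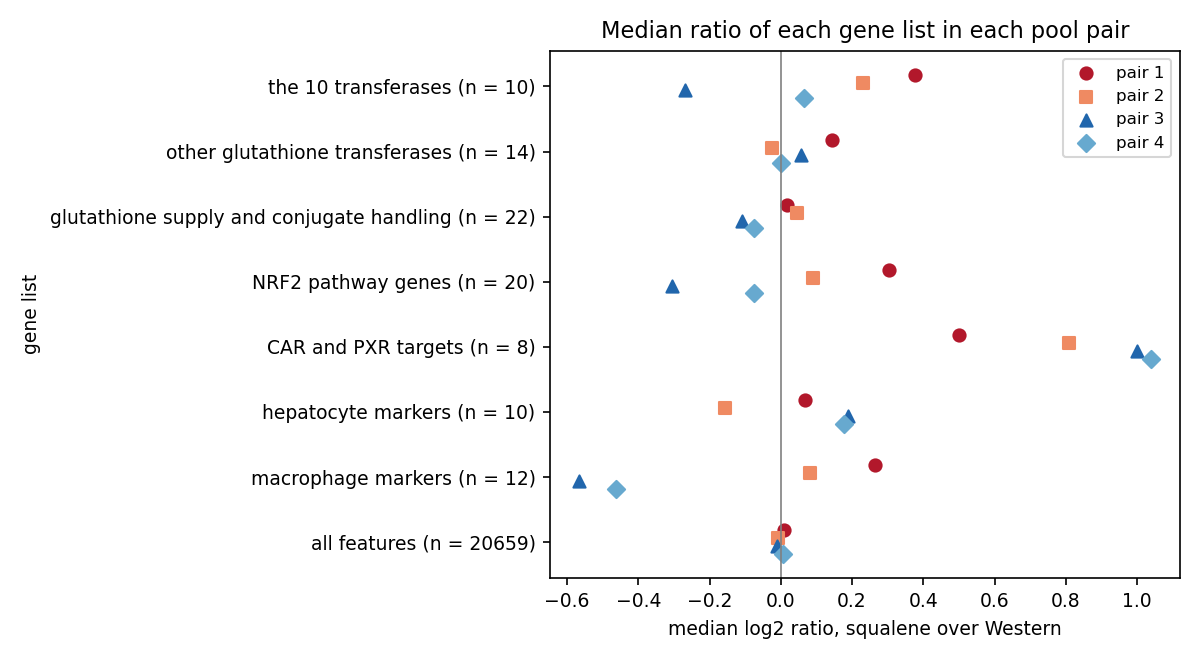
Median log2 ratio of squalene over Western (horizontal axis) of the transferases, 6 other gene lists and all features (vertical axis, with the number of genes measured) in each pool pair. The transferases read 0.38 in pair 1 and -0.27 in pair 3, and the other glutathione transferases 0.14 and 0.06. In the same pairs the NRF2 pathway genes read 0.30 and -0.30, and the CAR and PXR targets 0.50 and 1.00.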

How the data were processed

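The authors' deposited scanner files gave spot and background intensity in both channels and log10 ratios, and per the file headers the software was Agilent's Feature Extraction, version 10.7.3.1. Their deposited value table held log10 ratios of squalene over Western for unnormalised median signals, matching within 0.001 for 99.93% to 99.94% of spots, so scale and direction were settled. Its column medians were 0.254 and 0.27 (pair 1), -0.217 and -0.257 (pair 2), -0.27 (pair 3) and 0.259 (pair 4), and 4 cells too large for a log ratio were left out.

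In R 4.3.3 with limma 3.58.1, the median spot signals went through normexp (offset 50) and loess within arrays, with controls at weight 0 and outlier spots left out. Repeat arrays were averaged. Probes well above background in over 50% of their spots in at least 3 of 4 pairs, for at least 1 diet, were kept (26854, removing 28827), and the brightest stood for each gene, giving 20659 features. limma (lmFit, eBayes, dye intercept, 2 residual degrees of freedom, prior of 3.04) tested log2 ratios with Benjamini-Hochberg adjustment. The median SE was 0.07. No spot was saturated, the share of spots well above background was 46.6% to 51.9% per channel, and the 4 pairs limit the precision. An exact sign-flip test of 4 pairs cannot give a p under 0.125. Symbols came from RefSeq (GRCm38.p6), which named 26762 probes.

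The members and gene lists were chosen with earlier results of these data known. All members were named, with up to 3 genes of each other list by smallest p and the 3 features nearest to the member with the largest mean ratio. Gsta1 and Mgst2 were named after their values were seen. The cell marker lists were given as medians. Alternatives changed the background correction, normalisation, filter, dye term, slide, probes per gene, variance prior, source table and pool pairs.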

Additional observations from a re-analysis of the deposited data

Results flagged for a closer look

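Of 99 groups of 4 values checked, 5 held a value apart from the other 3 by a gap of a size that chance gives in about 1 of 20 groups, so their number is near what chance gives. Of these, 4 are levels within a diet and 1 is a ratio across the pairs. For Gsta4 the Western pool of pair 3 read a log2 intensity of 10.15, against 9.45 to 9.56 in the other Western pools, a gap of 0.848 of the whole range. For Gsta1 the squalene pool of pair 1 read 11.80, against 10.26 to 10.36 in the other squalene pools (0.932 of the range). For Mgst2, a microsomal transferase, the squalene pool of pair 1 read 6.71, against 6.33 to 6.39 (0.863 of the range). The second probe of Gstp1 read 14.93 in the Western pool of pair 4, against 15.34 to 15.41 (0.855 of the range). A dimmer probe of Gstm6 had a log2 ratio of 0.30 in pair 3, against 0.07 to 0.10 in the other pairs (0.889 of the range). The cause of these gaps was not tested.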

How the results depend on the processing

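None of the 10 transferases passed an adjusted p of 0.05 under any of the 15 alternative settings run, and Gstm1, Gstm2, Gstm3, Gstm4 and Gstm6 kept their direction under all of them. Features past an adjusted p of 0.05 numbered 0, against 2 with median centring in place of loess, 4 with a slide covariate and the pool pair as a random block, and 8 from the deposited table; under the block, 1 member, Gstm4, had an unadjusted p under 0.05 (0.037). Features at an unadjusted p under 0.05 numbered 510, against 201 with median centring, 935 without the filter, 254 without the dye intercept and 183 from the deposited table. Leaving out a pair gave 363 to 1309 of them, with 1309 without pair 2 and 872 without pair 3, and a members' median between 0.0018 and 0.107. Small fitted ratios changed sign. With Agilent's processed signals Gsta3 read -0.014 and Gstt1 -0.0023. Fits without a pair kept the dye term, and weighed the pair alone in its orientation as much as both others together. Their ratios, and the signs of these, can therefore differ from those of a plain mean of the remaining pairs. With a pair left out, Gsta2 ran from -0.22 to 0.49, below 0 without pair 1 (-0.20) or pair 2; Gsta3 from -0.054 to 0.079, below 0 without pair 1; Gsta4 from -0.23 to 0.15, above 0 without pair 3 or pair 4 (0.080). Gstt1 ran from -0.024 to 0.064, below 0 without pair 1 or pair 2 (-0.019), and Gstp1 from -0.10 to 0.041, above 0 without pair 1 or pair 3 (0.033). The cause of these changes was not tested. The fit on within-array ratios of the 4 pool pairs is itself paired.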

Other observations

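For several transferases the brightest probe differed between the dye orientations while a dimmer probe of the same gene did not to that extent. The dye term of the fit, which is the mean ratio of the pairs with squalene in Cy5 minus that of the pairs with squalene in Cy3, divided by 2, was 0.28 for the brightest probe of Gsta3 and -0.01 for its other probe, on the log2 scale. For Gstm1 it was 0.32 on the brightest probe and 0.05 on the other, for Gstp1 0.13 and -0.004, and for Gstm2 0.18 on the brightest and -0.04 and -0.05 on the others. Gstm6 read 0.18 on the brightest and -0.01 and -0.06 on the others. Gstm3 ran the other way, at 0.09 on the brightest and 0.30 on the other, and Gstm4 read -0.12 and 0.10. Each orientation holds 2 pool pairs, so the dye and the pools that share it cannot be told apart in a single probe. The mean ratios, with the dye term in the fit, lay within 0.14 of each other for the probes of each of these genes.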
